A study of Rattus norvegicus with 17 samples.

Results

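The cell cycle genes described here are 47 genes with a textbook role in cell division, taken as a list of gene symbols and ordered by the phase of the cycle in which they act. A gene was a member if its symbol filled the gene column of a row of its own in the authors' deposited gene tables, and 46 of the 47 did so in both tables. Ccnb2, a B-type cyclin, had no row of its own and has no value here. No member symbol was repeated, so each of the 46 was read from 1 row. They form 5 groups: 5 G1 cyclins and kinases, 7 genes of G1/S entry and origin licensing, 11 genes of DNA replication, 10 G2/M regulators and 14 genes of mitosis and cytokinesis. Each table held 126306 features in all, of which 31195 carried a single gene name.

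The study profiled RNA of the left kidney of 17 male Sprague Dawley rats, an outbred laboratory strain with no genetic change named in the labels. In the 5/6Nx group (6 rats) the right kidney and 2/3 of the left were removed, so that a surgical remnant was all the kidney tissue left. In the 1/3Nx group (6 rats) the same portion of the left kidney was cut away and the right kidney stayed in place. The sham group (5 rats) was operated on without loss of kidney tissue. All rats arrived at 9 weeks of age, ate a 0.4% Dyets chow, had surgery at 10 weeks and gave their left kidney 6 weeks later. The labels name no drug or other treatment. RNA came from frozen tissue of the left kidney with no cell type selected, so that the kinds of cell cannot be told apart. Only 1 time was sampled, so an early wave of division after surgery was not measured.

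Cells leave rest when D-type cyclins with Cdk4 and Cdk6, and then cyclin E with Cdk2, inactivate the retinoblastoma family and release E2F factors. E2F factors switch on the genes that load the MCM helicase at origins and copy DNA. B-Myb and FoxM1 switch on the later genes of mitosis through a promoter element called the CHR. Another promoter element, the CCAAT box, is counted below as well. In the adult kidney few tubule cells divide at any time, and the cycle is re-entered after injury and during growth of the remaining tissue.

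The promoters of 6 members that rose after a surgery are printed to show where these promoter elements lie. The risers Ccne1 (no match) and Gins2 (1 CCAAT box) have a RefSeq promoter too and are not printed. Each is the 250 bases before the start site, 5′ to 3′ on the gene's own strand, from RefSeq on GRCr8, the rat assembly of that table. Capitals mark matches on either strand to an E2F site (TTTGGCGC, TTTCCCGC, TTTGCCGC or TTTCGCGC), a CHR (TTTGAA or TTCGAA) or a CCAAT box (CCAAT).
Mcm5 (chr19:13488563-13488812, plus strand): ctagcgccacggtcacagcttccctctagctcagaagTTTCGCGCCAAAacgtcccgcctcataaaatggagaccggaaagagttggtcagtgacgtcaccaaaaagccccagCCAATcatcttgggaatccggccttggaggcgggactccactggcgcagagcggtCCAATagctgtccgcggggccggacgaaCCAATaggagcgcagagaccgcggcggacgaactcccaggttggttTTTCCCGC
Mcm6 (chr13:42404353-42404602, minus strand): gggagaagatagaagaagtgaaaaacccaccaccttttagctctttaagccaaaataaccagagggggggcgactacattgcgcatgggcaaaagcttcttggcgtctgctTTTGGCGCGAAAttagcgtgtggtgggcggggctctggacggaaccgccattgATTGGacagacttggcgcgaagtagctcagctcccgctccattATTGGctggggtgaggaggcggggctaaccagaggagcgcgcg
Mcm3 (chr9:30733747-30733996, minus strand): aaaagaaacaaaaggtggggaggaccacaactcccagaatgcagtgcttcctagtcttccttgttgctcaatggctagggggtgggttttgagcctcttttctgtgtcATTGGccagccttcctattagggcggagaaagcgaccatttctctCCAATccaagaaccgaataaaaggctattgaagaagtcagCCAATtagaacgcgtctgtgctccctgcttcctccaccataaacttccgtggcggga
Top2a (chr10:84473094-84473343, minus strand): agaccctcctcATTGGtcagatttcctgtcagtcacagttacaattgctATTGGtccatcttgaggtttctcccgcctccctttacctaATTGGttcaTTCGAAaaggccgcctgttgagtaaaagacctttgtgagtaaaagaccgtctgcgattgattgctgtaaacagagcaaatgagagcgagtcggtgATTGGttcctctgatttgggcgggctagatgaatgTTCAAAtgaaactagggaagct
Mki67 (chr1:199952594-199952843, minus strand): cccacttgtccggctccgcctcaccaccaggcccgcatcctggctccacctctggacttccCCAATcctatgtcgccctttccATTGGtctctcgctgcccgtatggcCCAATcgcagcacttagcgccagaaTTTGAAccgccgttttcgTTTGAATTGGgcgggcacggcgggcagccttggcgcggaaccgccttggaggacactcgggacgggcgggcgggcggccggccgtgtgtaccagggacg
Nusap1 (chr3:127057045-127057294, plus strand): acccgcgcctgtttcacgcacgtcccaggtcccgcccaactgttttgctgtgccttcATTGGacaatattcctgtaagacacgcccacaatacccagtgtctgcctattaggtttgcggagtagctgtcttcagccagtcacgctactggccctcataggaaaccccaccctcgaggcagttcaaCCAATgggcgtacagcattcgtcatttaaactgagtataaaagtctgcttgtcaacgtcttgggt

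The promoters of the helicase genes Mcm5 and Mcm6 held 3 and 2 E2F matches and no CHR. Those of Top2a and Mki67 held 2 CHR matches each, 4 CCAAT boxes each and no E2F match, while Mcm3 and Nusap1 held CCAAT boxes only. Matches overlapped at 1 place each in Mcm5, Mcm6 and Mki67. A RefSeq promoter was found for 33 of the 47 members. An E2F match stood in 6 of these 33 (18.2%), against 1.73% of all 33469 promoters of the same length. Of the 9 replication genes with a promoter, 5 held it (Mcm2, Mcm5, Mcm6, Mcm7 and Tyms), and the other member with a match was Cdk1, the mitotic kinase. The CHR stood in 12 of 33 members, against 17.4% of all promoters. It stood in 3 of 9 replication promoters, 4 of 8 promoters of G2/M regulators and 5 of 11 mitotic promoters. Among G1 genes it stood in 0 of 2, and among G1/S genes in 0 of 3. Mcm2, Mcm7 and Cdk1 held both E2F and CHR matches. A CCAAT box stood in 24 of 33, against 34% of all promoters. By phase it stood in 1 of 2 G1, 1 of 3 G1/S, 7 of 9 replication, 6 of 8 G2/M and 9 of 11 mitotic promoters. A match is a run of letters in this window and no measure of binding.

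The libraries held 71.9 M reads on average in 5/6Nx (SD 16.4, n = 6), 70.3 M in 1/3Nx (SD 9.27, n = 6) and 71.4 M in sham (SD 4.59, n = 5), where M is the SI prefix mega. The share of reads mapped was 82.7% ± 11.0 in 5/6Nx (SD, n = 6), with libraries from 62.6% to 90.5%, and 87.7% ± 1.94 in sham (SD, n = 5). In 1/3Nx it was 89.0% ± 1.16 (SD, n = 6). Two-sided exact permutation tests on the means of reads, base quality and mapping gave adjusted p of 0.695 or more over 6 tests. Expression is given as FPKM, fragments per kilobase of feature and per mega of mapped fragments, as 1 value per group in the authors' deposited table of each surgery against sham. No value per rat could be analysed, so no SD stands beside a level, whether rats of the groups overlap is unknown, and the part of the poorly mapped 5/6Nx libraries in any difference was not tested. A gene rose or fell where the q-value in the authors' deposited table, adjusted over all tested features, was under 0.05. Sham levels of the members in the 1/3Nx table were a median of 2.01 times those in the 5/6Nx table, although both describe the same sham rats, so levels are compared only within a table. Gene positions are printed as the tables give them, and their build was not settled. In whole tissue, more cells of a dividing kind and more RNA per cell cannot be told apart.

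After 5/6Nx the cell cycle genes that rose were Ccne1, Cdc6, Mcm5, Mcm6, Gins2, Top2a, Mki67 and Nusap1, and none fell, in the authors' deposited table. These were 8 of 42 tested members (19.0%), against 8.01% of all tested single-name features called higher. The members were chosen with earlier results of these data known, so this share and those below describe the list and do not test it. The deposited log2 fold changes of the 8 genes that rose ran between 2.39 for Gins2 and 4.58 for Mcm6. Calls of a lower value were rare over all features, at 13 of 14452 tested single-name features after 5/6Nx. Of the 46 listed members, 36 had a higher value in 5/6Nx than in sham, with a median log2 fold change of 1.40. Over all tested single-name features the median was -0.06, and 49.6% had the higher value in 5/6Nx. Those of at least 1 FPKM in sham had a median of -0.20, so the median varied with level. Many members stood under 1 FPKM in sham, and no background matched to them in level was computed. The calls rest on how p-values were adjusted: over single-name features alone only Mki67 (q = 0.0301) and Nusap1 (q = 0.0348) passed, and over those above 0 FPKM in sham none did. These 2 of 42 stand beside 4.08% of all features called higher by the adjustment over single-name features. For features above 0 FPKM in sham that share was not counted. In the authors' deposited table for 5/6Nx, 10 members had an unadjusted p under 0.05, all higher (23.8% of those tested, against 10.3% of all features).

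After 1/3Nx 2 members rose, the helicase gene Mcm3 and the topoisomerase gene Top2a, and none fell, in the authors' deposited table. That is 2 of 40 tested members, against 5.7% of all tested single-name features called higher, a share near the background. Of all 13326 tested single-name features, 350 were called lower after 1/3Nx. Values were higher in 1/3Nx than in sham for 37 of 46 listed members, with a median log2 fold change of 0.54. The median over all tested single-name features was 0.05, and 54.1% had the higher value in 1/3Nx. Those of at least 1 FPKM in sham had a median of -0.01, and here too no background matched in level was computed. An unadjusted p under 0.05 was held by 11 of 40 members (27.5%), all higher, against 12.8% of all features in the authors' deposited table. Both calls held when q was recomputed over single-name features, by which 6.33% of all features were called higher. The comparisons share the sham rats, so the values of each surgery are set side by side below without a test between them.

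**Figure D1:**
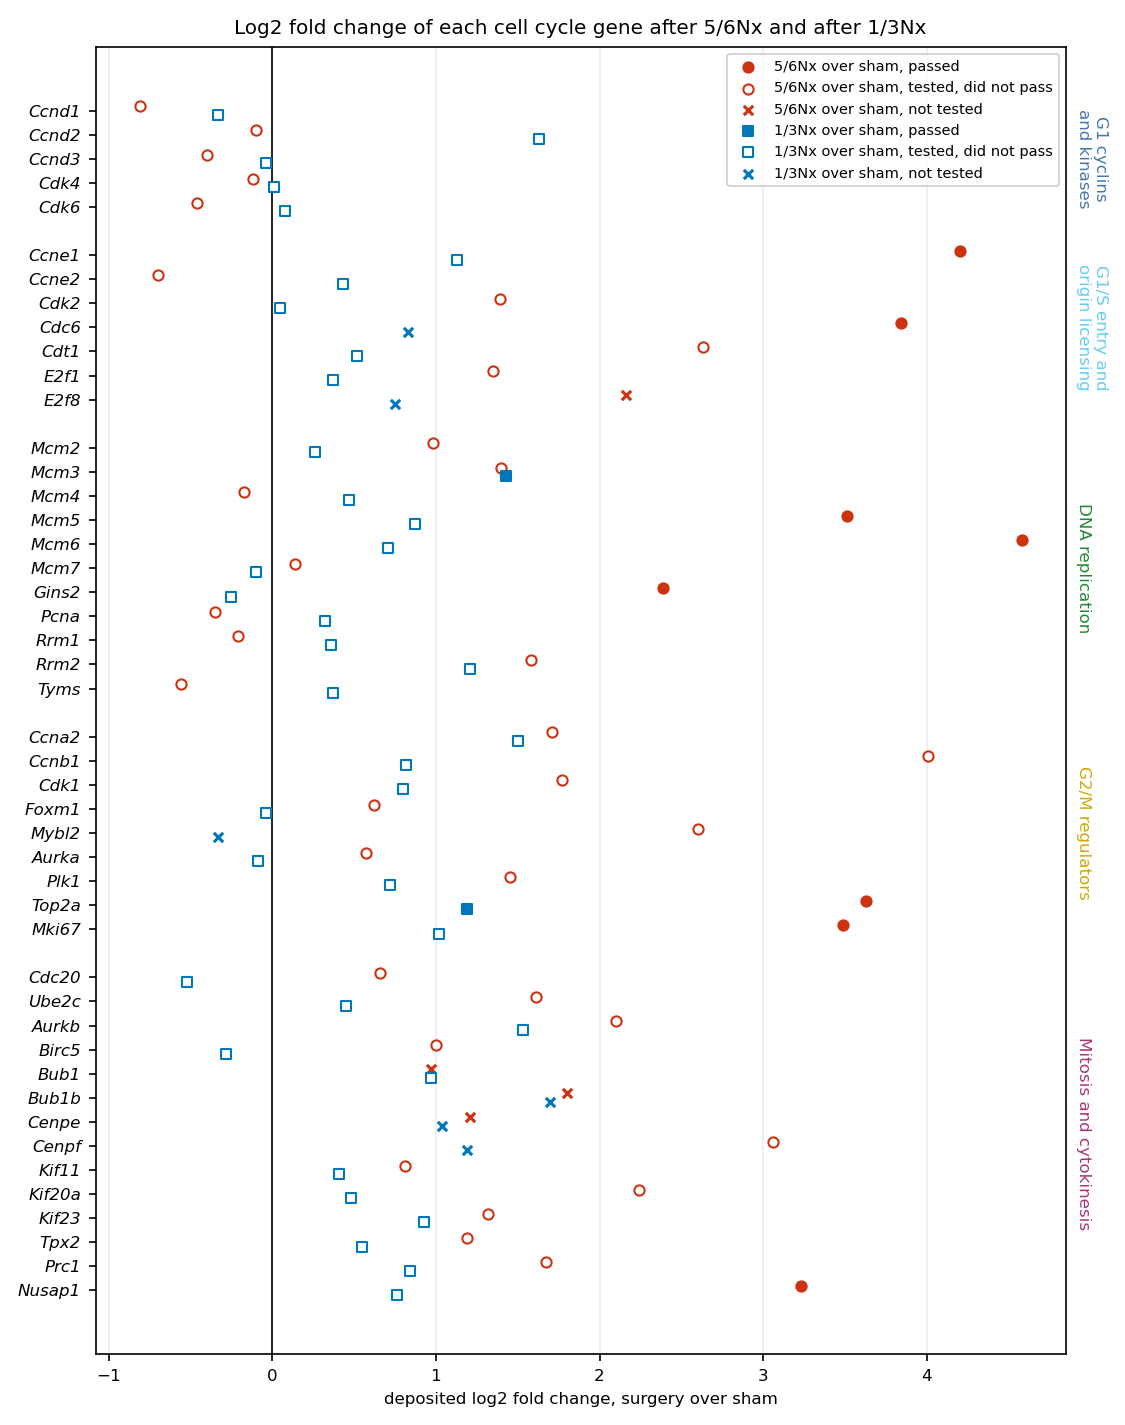
Deposited log2 fold change of surgery over sham (horizontal axis) for the 46 listed cell cycle genes, by phase; circles are 5/6Nx, squares 1/3Nx, filled where the authors' q was under 0.05, crosses where no test was made. The 5 G1 genes lie between -0.81 and -0.10 after 5/6Nx, while all 9 G2/M regulators and all 14 mitotic genes lie to the right of 0.

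G1 cyclins and their kinases, among them Ccnd1 and Cdk4, the members of highest sham FPKM, did not pass the test after either surgery. Ccnd1, the D-type cyclin induced by growth signals, had 18.3 FPKM in 5/6Nx and 31.9 in sham (-0.81 on the log2 scale, q = 0.733) in the authors' deposited table for 5/6Nx. In the authors' deposited table for 1/3Nx it had 50.9 FPKM in 1/3Nx and 64.2 in sham (-0.33, q = 0.443). Cdk4, its kinase partner, had 27.8 FPKM in 5/6Nx and 30.2 in sham (q = 0.938), and 61.0 in 1/3Nx and 60.5 in sham (q = 0.992), per the authors' deposited table of each surgery. Ccnd3, another D-type cyclin, had 10.4 FPKM in 5/6Nx and 13.7 in sham, and 26.7 in 1/3Nx and 27.4 in sham, per the authors' deposited table of each surgery. Neither of these genes passed. Ccnd2, the remaining cyclin of this class, had 0.434 FPKM in 5/6Nx and 0.465 in sham, but 2.91 in 1/3Nx and 0.941 in sham (1.63 on the log2 scale, q = 0.358), per the authors' deposited table of each surgery. Cdk6, the other kinase of D-type cyclins, had 0.731 FPKM in 5/6Nx and 1.006 in sham (-0.46), and 2.13 in 1/3Nx and 2.02 in sham (0.08), per the authors' deposited table of each surgery. All 5 values were lower in 5/6Nx than in sham, with a median log2 fold change of -0.40, while 3 of 5 were higher in 1/3Nx, with a median of 0.01. Tested single-name features of at least 1 FPKM in sham had medians of -0.20 after 5/6Nx and -0.01 after 1/3Nx.

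In G1/S entry and origin licensing, the cyclin gene Ccne1 and the licensing gene Cdc6 rose after 5/6Nx, 2 of 6 tested, against 8.01% of all features. Neither call held with q recomputed over single-name features (0.349 and 0.148). Ccne1, which partners Cdk2 at the start of S phase, had 2.09 FPKM in 5/6Nx and 0.114 in sham (4.20 on the log2 scale, q = 0.0483; chromosome 1, 94485831 to 94494980) in the authors' deposited table for 5/6Nx. Cdc6, which loads the MCM helicase at origins, had 1.085 FPKM in 5/6Nx and 0.0758 in sham (3.84, q = 0.0136; chromosome 10, 86819471 to 86833402) in the authors' deposited table for 5/6Nx. Both stood well below 1 FPKM in sham. In the authors' deposited table for 1/3Nx, Ccne1 had 0.499 FPKM in 1/3Nx and 0.228 in sham (1.13, q = 0.246), and Cdc6 was not tested at 0.271 in 1/3Nx and 0.152 in sham. Cdt1, the other helicase loader, had 1.63 FPKM in 5/6Nx and 0.262 in sham without passing (2.63, q = 0.143) in the authors' deposited table for 5/6Nx. E2f1, an activating E2F factor, had 0.942 FPKM in 5/6Nx and 0.370 in sham (1.35, q = 0.343), and 0.955 in 1/3Nx and 0.740 in sham (0.37, q = 0.738), per the authors' deposited table of each surgery. The E-type cyclins had opposite signs after 5/6Nx. Ccne2, the other E-type cyclin, had 0.239 FPKM in 5/6Nx and 0.387 in sham (-0.70, q = 0.615) in the authors' deposited table for 5/6Nx. E2f8, a repressing E2F factor, was not tested in either table and had the lowest sham level of all members. In all, 6 of 7 values were higher in 5/6Nx than in sham and 7 of 7 were higher in 1/3Nx, with none of the 5 tested there passing.

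Cdk2, the kinase of cyclins E and A, had a gene value that came mainly from transcripts without a name in 5/6Nx and in sham. At the gene level it had 6.48 FPKM in 5/6Nx and 2.47 in sham (1.39 on the log2 scale, q = 0.119) in the authors' deposited table for 5/6Nx. Its annotated transcript had 0.701 FPKM in 5/6Nx and 0.907 in sham (-0.37), and unnamed assembled transcripts of the locus made up 89.2% of the 5/6Nx level and 63.2% of the sham level, per the authors' deposited table of isoforms. The annotated transcript and the gene thus differed in the sign of the change after 5/6Nx. After 1/3Nx the gene had 5.13 FPKM in 1/3Nx and 4.97 in sham (0.05, q = 0.952) in the authors' deposited table. Unnamed transcripts made up 48.6% of that 1/3Nx level. The annotated transcript had a log2 fold change of 0.53 after 1/3Nx, per the authors' deposited table of isoforms.

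Of the DNA replication genes, 3 of 11 rose after 5/6Nx (Mcm5, Mcm6 and Gins2) and 1 of 11 after 1/3Nx (Mcm3), against 8.01% and 5.7% of all features. With q recomputed over single-name features none of the 3 passed after 5/6Nx (Mcm5 0.352, Mcm6 0.158 and Gins2 0.301), and Mcm3 did after 1/3Nx (0.0128). Values were higher in 5/6Nx than in sham for 7 of 11, and in 1/3Nx for 9 of 11. Mcm2 to Mcm7 encode the 6 subunits of the ring-shaped replicative helicase, and 2 of the 6 passed after 5/6Nx. Mcm6 had 24.2 FPKM in 5/6Nx and 1.015 in sham (4.58 on the log2 scale, q = 0.0147; chromosome 13, 45042881 to 45068077) in the authors' deposited table for 5/6Nx. Of this 5/6Nx value 90.5% is an unnamed transcript, and the annotated transcript of Mcm6 stood at 1.18 on the log2 scale (q = 0.479), per the authors' deposited table of isoforms. Mcm5 had 5.6 FPKM in 5/6Nx and 0.491 in sham (3.51, q = 0.0489; chromosome 19, 14523553 to 14561278) in the authors' deposited table for 5/6Nx. The other 4 subunits did not pass there. Mcm3 had 1.11 FPKM in 5/6Nx and 0.421 in sham (1.40, q = 0.362), and Mcm2 had 4.26 in 5/6Nx and 2.16 in sham (0.98, q = 0.379), per the authors' deposited table for 5/6Nx. Mcm4 had 0.789 FPKM in 5/6Nx and 0.889 in sham (-0.17), and Mcm7 had 6.70 in 5/6Nx and 6.09 in sham (0.14), per the authors' deposited table for 5/6Nx. After 1/3Nx the subunit that rose was Mcm3, with 2.28 FPKM in 1/3Nx and 0.845 in sham (1.43, q = 0.0162; chromosome 9, 26914056 to 26932201) in the authors' deposited table for 1/3Nx. Mcm5 had 1.80 FPKM in 1/3Nx and 0.986 in sham (0.87, q = 0.154), and Mcm6 had 3.33 in 1/3Nx and 2.03 in sham (0.71, q = 0.129), per the authors' deposited table for 1/3Nx. None of the 5 subunits other than Mcm3 passed there. Mcm4 had 2.48 FPKM in 1/3Nx and 1.79 in sham (0.47), Mcm2 had 5.2 in 1/3Nx and 4.34 in sham (0.26), and Mcm7 had 11.4 in 1/3Nx and 12.2 in sham (-0.10), per the authors' deposited table for 1/3Nx. Mcm3 thus passed in the table of 1/3Nx at a log2 fold change close to the one that did not pass after 5/6Nx.

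Gins2, a subunit of the GINS complex that completes the active helicase, had 11.2 FPKM in 5/6Nx and 2.14 in sham (2.39 on the log2 scale, q = 0.0377) in the authors' deposited table for 5/6Nx. Its row spans 103 kb (chromosome 19, 54060621 to 54164006), and it had 3.61 FPKM in 1/3Nx and 4.29 in sham (-0.25, q = 0.825) in the authors' deposited table for 1/3Nx. Pcna, the sliding clamp of DNA polymerases and a common stain for proliferating cells, did not pass: it had 14.3 FPKM in 5/6Nx and 18.3 in sham (-0.35, q = 0.865) in the authors' deposited table for 5/6Nx. In 1/3Nx it had 45.8 FPKM, against 36.8 in sham (0.32, q = 0.516), per the authors' deposited table for 1/3Nx. The nucleotide supply genes did not pass either. Rrm2, the small subunit of ribonucleotide reductase made in S phase, had log2 fold changes of 1.58 after 5/6Nx and 1.21 after 1/3Nx, per the authors' deposited table of each surgery. Its large subunit Rrm1 had -0.21 and 0.36, and the thymidylate synthase gene Tyms -0.56 and 0.37, for 5/6Nx and 1/3Nx in that order in the authors' deposited table of each surgery.

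**Figure D2:**
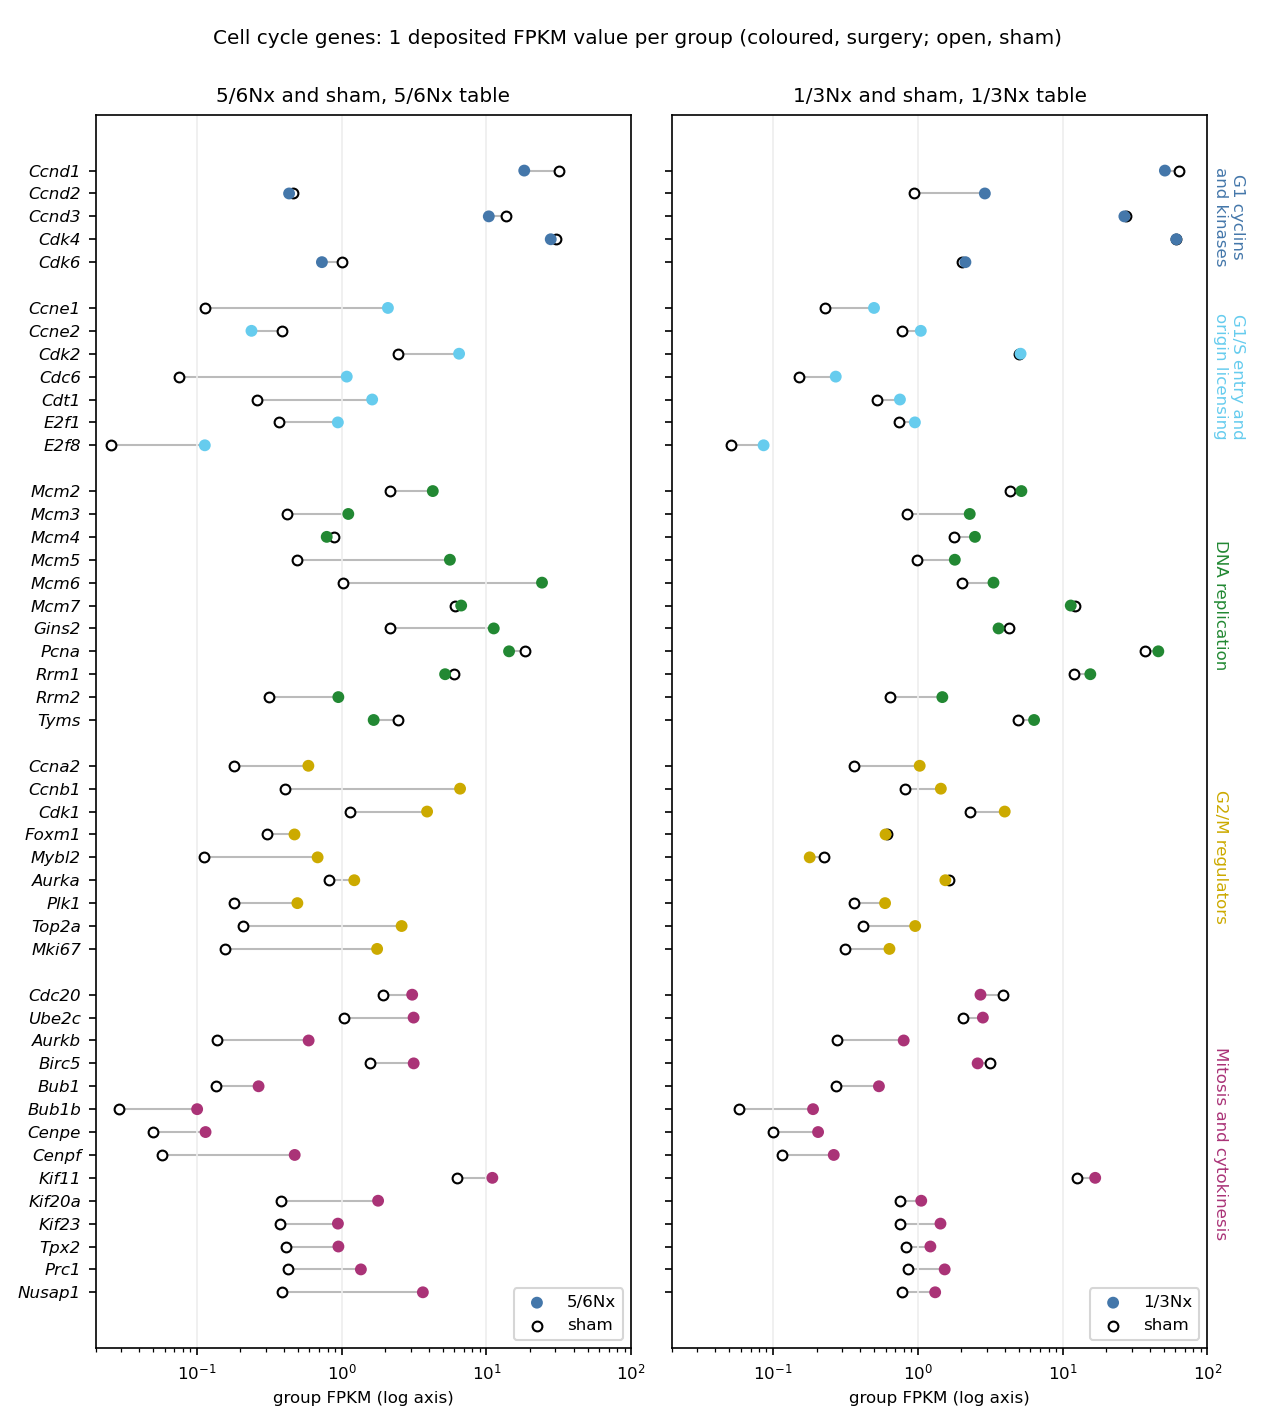
Level of each listed cell cycle gene in FPKM (horizontal log axis), 1 value per group as deposited, with the 5/6Nx table on the left and the 1/3Nx table on the right; coloured points are surgery, open points sham. Genes of high sham level (Ccnd1, Ccnd3, Cdk4, Pcna) show short lines, and the longest lines belong to genes near or under 1 FPKM in sham, such as Ccne1 (2.09 FPKM in 5/6Nx and 0.114 in sham).

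G2/M regulators all had the higher value after 5/6Nx (9 of 9 listed), and 2 of 9 passed, Top2a and Mki67, against 8.01% of all features. With q recomputed over single-name features Top2a lost its call after 5/6Nx (q = 0.299) and Mki67 held it. Mki67, the gene of the Ki-67 antigen that coats mitotic chromosomes, had 1.76 FPKM in 5/6Nx and 0.157 in sham (3.49 on the log2 scale, q = 0.00204; chromosome 1, 207993894 to 208020454) in the authors' deposited table for 5/6Nx. Top2a, the topoisomerase that untangles replicated chromosomes, had 2.60 FPKM in 5/6Nx and 0.209 in sham (3.63, q = 0.0372; chromosome 10, 86901006 to 86932154) in the authors' deposited table for 5/6Nx. Top2a was the member that rose after both surgeries. In the authors' deposited table for 1/3Nx it had 0.960 FPKM in 1/3Nx and 0.421 in sham (1.19, q = 0.0233), whereas Mki67, at 0.637 in 1/3Nx and 0.315 in sham (1.02, q = 0.0750), did not pass. Ccnb1, the cyclin that drives entry into mitosis, had 6.58 FPKM in 5/6Nx and 0.409 in sham and lay just outside the threshold (4.01, q = 0.0608) in the authors' deposited table for 5/6Nx. With q recomputed over single-name features Ccnb1 stood at 0.396. Its kinase Cdk1 had 3.89 FPKM in 5/6Nx and 1.14 in sham (1.77, q = 0.229) in the authors' deposited table for 5/6Nx. After 1/3Nx neither passed, with Ccnb1 at 1.44 FPKM in 1/3Nx and 0.819 in sham (0.82, q = 0.364) and Cdk1 at 3.99 in 1/3Nx and 2.28 in sham (0.80, q = 0.243), per the authors' deposited table for 1/3Nx. Ccna2, the cyclin of S and G2 phase, had 0.590 FPKM in 5/6Nx and 0.181 in sham (1.71, q = 0.242), and 1.03 in 1/3Nx and 0.365 in sham (1.5, q = 0.701), per the authors' deposited table of each surgery.

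The transcription factors of this phase were low and did not pass. Foxm1 had 0.473 FPKM in 5/6Nx and 0.307 in sham (0.62 on the log2 scale, q = 0.652), and 0.599 in 1/3Nx and 0.615 in sham (-0.04, q = 0.978), per the authors' deposited table of each surgery. Mybl2, the gene of B-Myb, had a log2 fold change of 2.60 after 5/6Nx (q = 0.152) and was not tested after 1/3Nx, per the authors' deposited table. The mitotic kinase Plk1 had 0.495 FPKM in 5/6Nx and 0.181 in sham (1.45, q = 0.366), and 0.594 in 1/3Nx and 0.362 in sham (0.72, q = 0.588), per the authors' deposited table of each surgery. Aurka, the kinase of the spindle poles, had log2 fold changes of 0.57 after 5/6Nx and -0.09 after 1/3Nx in the authors' deposited table. Of the 8 G2/M regulators tested after 1/3Nx, 1 rose (Top2a), against 5.7% of all features, and 6 of the 9 listed had the higher value in 1/3Nx.

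All 14 genes of mitosis and cytokinesis had the higher value in 5/6Nx than in sham, and 1 of the 11 tested, Nusap1, rose, a share near the 8.01% of all features called higher. Nusap1, which binds and stabilises spindle microtubules, had 3.64 FPKM in 5/6Nx and 0.387 in sham (3.23 on the log2 scale, q = 0.00239; chromosome 3, 111422266 to 111452999) in the authors' deposited table for 5/6Nx. In 1/3Nx it had 1.32 FPKM, against 0.777 in sham (0.76, q = 0.403), per the authors' deposited table for 1/3Nx. Kif20a, a kinesin of cytokinesis, lay just outside the threshold after 5/6Nx with 1.79 FPKM in 5/6Nx and 0.379 in sham (2.24, q = 0.0700) in the authors' deposited table for 5/6Nx. With q recomputed over single-name features Kif20a stood at 0.421. The chromosomal passenger complex, which corrects faulty kinetochore attachments, did not pass. Its kinase Aurkb had 0.592 FPKM in 5/6Nx and 0.138 in sham (2.1, q = 0.103), and 0.80 in 1/3Nx and 0.277 in sham (1.53, q = 0.119), per the authors' deposited table of each surgery. Its subunit Birc5, also called survivin, had 3.15 FPKM in 5/6Nx and 1.57 in sham (1.00, q = 0.537), and 2.59 in 1/3Nx and 3.15 in sham (-0.28, q = 0.814), per the authors' deposited table of each surgery. Cdc20, which activates the anaphase-promoting complex, had 3.07 FPKM in 5/6Nx and 1.94 in sham (0.66, q = 0.665), and 2.71 in 1/3Nx and 3.89 in sham (-0.52, q = 0.396), per the authors' deposited table of each surgery. Cdc20 and Birc5 were the mitotic members with the lower value in 1/3Nx, and the other 12 of 14 were higher there.

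Of the remaining mitotic genes, none passed in either table. Those of the spindle and midzone (Kif11, Kif23, Tpx2 and Prc1) and the ubiquitin-conjugating enzyme Ube2c had log2 fold changes between 0.81 for Kif11 and 1.67 for Prc1 after 5/6Nx, and between 0.41 for Kif11 and 0.93 for Kif23 after 1/3Nx, per the authors' deposited table of each surgery. The checkpoint and kinetochore genes were tested in part. Bub1b and Cenpe were tested in neither table, Bub1 only after 1/3Nx (0.97, q = 0.198) and Cenpf only after 5/6Nx (3.06, q = 0.124), per the authors' deposited table. Sham levels of these 4 genes lay between 0.0290 FPKM for Bub1b and 0.136 FPKM for Bub1 in the authors' deposited table for 5/6Nx. In total 4 of 46 listed members were not tested after 5/6Nx and 6 after 1/3Nx.

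**Figure D3:**
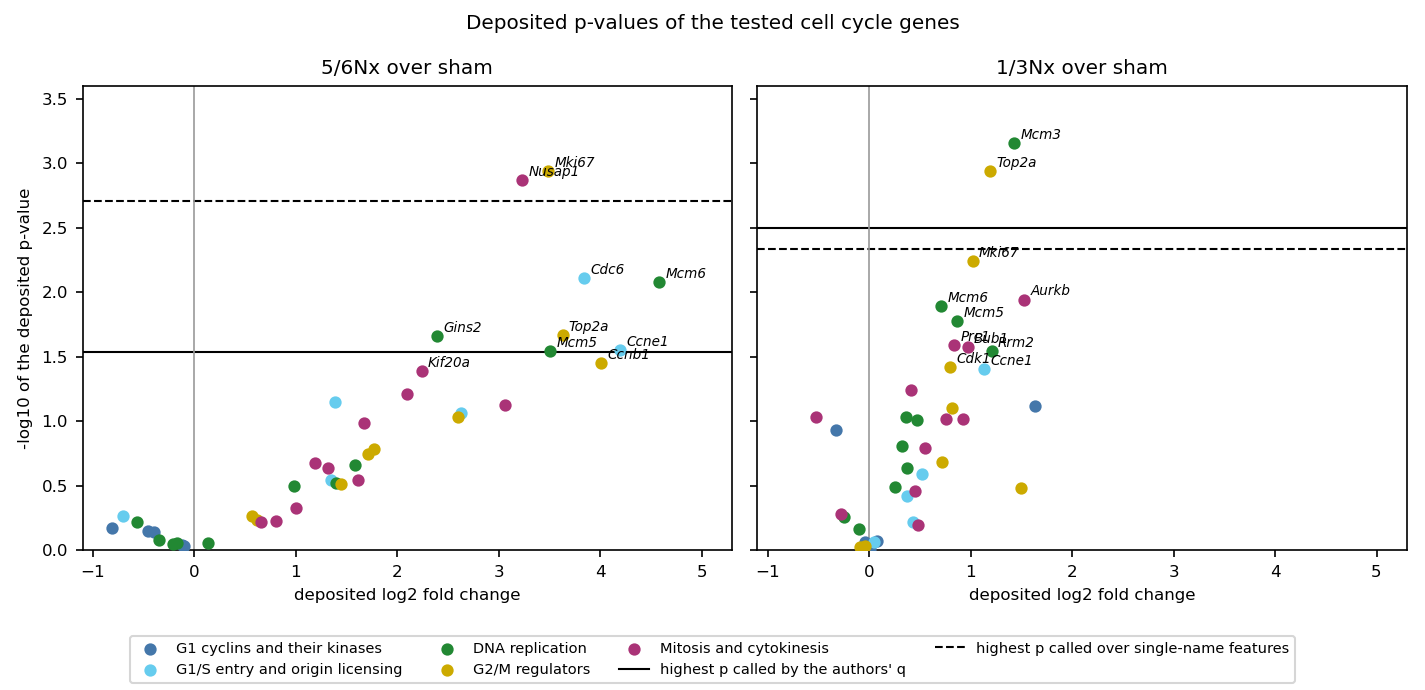
Deposited log2 fold change (horizontal axis) and -log10 of the deposited p-value (vertical axis) of the 42 and 40 tested members after 5/6Nx (left) and 1/3Nx (right), named where the unadjusted p was under 0.05. The solid line is the highest p-value called by the authors' q, 0.02895 for 5/6Nx and 0.0032 for 1/3Nx, and the dashed line is the highest p-value called over single-name features, 0.00195 and 0.00465; only Mki67 and Nusap1 lie above both lines after 5/6Nx.

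In 5/6Nx 671 tested single-name features stood at 0 FPKM in sham and 416 of these were called, and no member was among them. The p-value needed for a call differed between the tables: Ccne1 passed after 5/6Nx at p = 0.028, while Mki67 did not pass after 1/3Nx at p = 0.00575, both in the authors' deposited table.

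The authors' deposited table of isoforms lists 82 transcripts at the 46 loci, of which 61 are annotated and 21, in 14 loci, are assembled and unnamed. After 5/6Nx none of 58 tested transcripts passed, and the lowest q was 0.0563, for Ccne1. The 43 annotated ones among them are the set to compare with all single-name isoforms, of which 5.2% were called higher. An unadjusted p under 0.05 was held by 5 transcripts after 5/6Nx and by 9 after 1/3Nx, all annotated and higher, in the authors' deposited table. The share of all single-name isoforms at that p was not counted, so these 2 counts have no background beside them. After 1/3Nx 1 of 56 tested transcripts rose, the annotated one of Mcm3 (q = 0.0425). That is 1 of 39 annotated transcripts tested, against 2.3% of all single-name isoforms called higher.

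The gene value of Mcm6 in 5/6Nx lay mainly outside its annotated transcript. That transcript had 2.30 FPKM in 5/6Nx and 1.015 in sham, per the authors' deposited table of isoforms. An unnamed transcript of the locus had 21.9 FPKM in 5/6Nx and was listed at 0 in sham (p = 0.189), making up 90.5% of the gene's 5/6Nx level in the authors' deposited table. Top2a drew on annotated transcripts alone, and most of its 5/6Nx level came from a transcript with 1.86 FPKM in 5/6Nx and 2.20e-05 in sham (p = 0.490), per the authors' deposited table of isoforms. The transcript that held most of its sham level had 0.738 FPKM in 5/6Nx and 0.209 in sham (1.82, q = 0.297) in the authors' deposited table of isoforms. For Mki67 the annotated transcript had 1.31 FPKM in 5/6Nx and 0.0344 in sham, and unnamed transcripts made up 25.3% of the level in 5/6Nx and 78.05% in sham, per the authors' deposited table of isoforms. Nusap1 drew mainly on unnamed transcripts in both groups, with 83.9% unnamed in 5/6Nx and 84.2% in sham, per the authors' deposited table of isoforms. The annotated transcript of Gins2 had 7.36 FPKM in 5/6Nx and 1.79 in sham, a log2 fold change of 2.04 against 2.39 for the gene, per the authors' deposited table of isoforms. Outside the risers, unnamed transcripts made up most of the level of Kif11, a spindle kinesin (89.7% in 5/6Nx and 94.3% in sham), and of Mcm7 (76.7% in 5/6Nx and 84.2% in sham), per the authors' deposited table of isoforms. The annotated transcript of Mcm7 had log2 fold changes of 0.70 after 5/6Nx and 0.72 after 1/3Nx, against 0.14 and -0.10 for the gene, in the authors' deposited table.

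**Figure D4:**
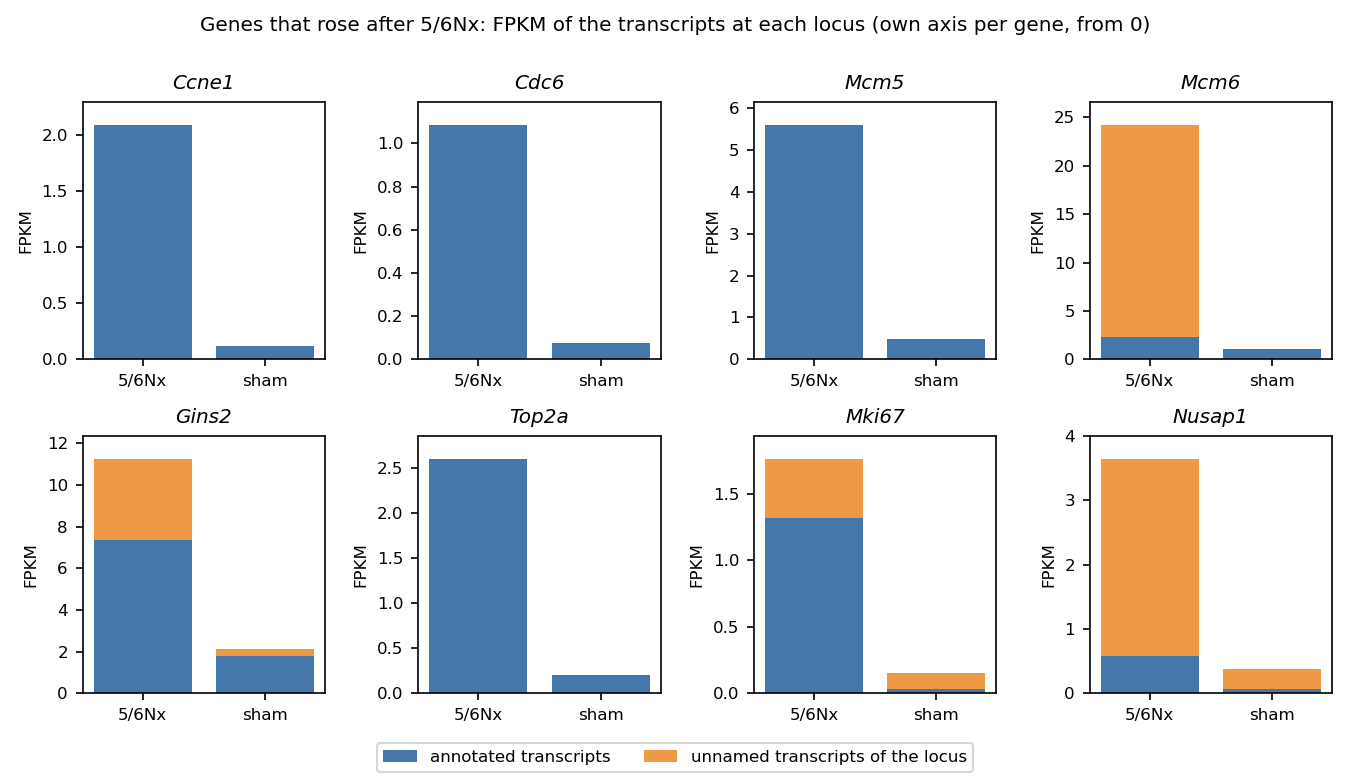
FPKM at the loci of the 8 genes that rose after 5/6Nx, split into annotated transcripts (blue) and unnamed assembled transcripts (orange), 5/6Nx left and sham right in each panel, each panel with its own axis from 0. Most of the Mcm6 bar in 5/6Nx is unnamed (21.9 of 24.2 FPKM), while Ccne1, Cdc6, Mcm5 and Top2a hold annotated transcripts alone.

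Among other genes of the pathway, 8 of 104 tested rose and none fell after 5/6Nx, and 2 of 100 rose and 1 fell after 1/3Nx, in the authors' deposited table. These shares, 7.69% and 2%, stand beside 8.01% and 5.7% of all features called higher, so neither is above the background, and the genes named next are values of single genes. With q recomputed over single-name features, 3 of the 8 stayed past the threshold after 5/6Nx (Mad2l1, Cenpt and Kif2c), while all 3 after 1/3Nx did. Of other replication genes, Uhrf1, which carries DNA methylation over to new strands, had 3.62 FPKM in 5/6Nx and 0.0515 in sham (6.14 on the log2 scale, q = 0.0183) in the authors' deposited table for 5/6Nx. It also rose after 1/3Nx, with 0.502 FPKM in 1/3Nx and 0.103 in sham (2.28, q = 0.00335), per the authors' deposited table for 1/3Nx. Cdc45, the helicase partner of MCM and GINS, rose after 5/6Nx (3.97, q = 0.0194), which made 2 of 27 tested in this list, in the authors' deposited table for 5/6Nx. Of other G2/M and mitosis genes 4 of 41 rose after 5/6Nx: the spindle checkpoint gene Mad2l1 (2.90), the kinetochore gene Cenpt (5.12) and the kinesin genes Kif2c (4.27) and Kif18b (5.88), as log2 fold changes in the authors' deposited table. After 1/3Nx none of 36 rose and the kinesin gene Kifc1 fell, with 8.42 FPKM in 1/3Nx and 15.0 in sham (-0.83, q = 0.0186), per the authors' deposited table. Pocket proteins, E2F, DP and MuvB genes, which repress or activate the cycle genes, had 0 of 15 past the threshold in both tables. For ubiquitin ligases of the cycle 1 of 16 rose after 5/6Nx (Fbxw7, a cyclin E receptor of SCF, 2.65, q = 0.0344) and 0 of 17 after 1/3Nx, in the authors' deposited table.

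Of the inhibitors of cyclin-dependent kinases, which halt the cycle, 1 rose after each surgery. Over all features 8.01% were called higher after 5/6Nx and 5.7% after 1/3Nx. With so few inhibitors tested, 1 call is a value of a single gene. Cdkn1a, the p53 target p21, had 26.1 FPKM in 5/6Nx and 2.75 in sham (3.25 on the log2 scale, q = 0.00485) in the authors' deposited table for 5/6Nx, and was the 1 of 5 tested inhibitors that rose there. Its call was lost with q recomputed over single-name features (q = 0.0647). In 1/3Nx Cdkn1a had 9.27 FPKM, against 5.51 in sham, and did not pass (0.75, q = 0.183), per the authors' deposited table for 1/3Nx. Cdkn2b, the gene of p15, rose after 1/3Nx, with 1.35 FPKM in 1/3Nx and 0.131 in sham (3.37, q = 0.0104), per the authors' deposited table, as 1 of 6 tested. After 5/6Nx it had 0.600 FPKM, against 0.0652 in sham, and did not pass (3.20, q = 0.0701), per the authors' deposited table. Cdkn2a, the senescence marker p16, had 0.248 FPKM in 5/6Nx and 0.0231 in sham without a test, and 0.544 in 1/3Nx and 0.0454 in sham (3.58, q = 0.611), per the authors' deposited table of each surgery. Cdkn1b, Cdkn1c and Cdkn2c, which hold differentiated cells at rest, had log2 fold changes of -0.30, -0.30 and -0.14 after 5/6Nx, and 0.19, 0.39 and 0.09 after 1/3Nx, per the authors' deposited table of each surgery. The remaining inhibitor of the list, Cdkn2d, had no row of its own.

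Markers of other cell kinds are given as summed FPKM with the count past the threshold, and their part in the cell cycle values was not tested. Over all features 8.01% were called higher after 5/6Nx and 5.7% after 1/3Nx. A sum can rest largely on 1 gene: Jchain held 50.6 of the 96.1 FPKM of T, B and plasma cell markers in 1/3Nx. Macrophage and monocyte markers summed to 151 FPKM in 5/6Nx and 62.8 in sham, with 0 of 8 past the threshold, and to 249 in 1/3Nx and 126 in sham, with 7 of 8 higher past it, per the authors' deposited table of each surgery. T, B and plasma cell markers summed to 34.2 FPKM in 5/6Nx and 8.10 in sham (1 of 9 rose), and to 96.1 in 1/3Nx and 16.2 in sham (6 of 10 rose), per the authors' deposited table of each surgery. Fibroblast and pericyte markers summed to 133 FPKM in 5/6Nx and 43.7 in sham (1 of 7 rose), and to 305 in 1/3Nx and 87.5 in sham (6 of 6 rose), per the authors' deposited table of each surgery. Proximal tubule markers, which define the labelled tissue, were present throughout, at 1456 FPKM in 5/6Nx and 1701 in sham, and 2193 in 1/3Nx and 3409 in sham (1 of 8 fell), per the authors' deposited table of each surgery. Markers of other nephron segments summed to 636 FPKM in 5/6Nx and 1371 in sham (0 of 7 passed), and to 2462 in 1/3Nx and 2749 in sham (1 of 7 fell), per the authors' deposited table of each surgery. For endothelium the sums were 54.0 FPKM in 5/6Nx and 73.2 in sham (0 of 6 passed), and 142 in 1/3Nx and 147 in sham (1 of 6 rose and 1 fell), per the authors' deposited table of each surgery. Exocrine pancreas markers, foreign to the kidney, summed to 607 FPKM in 5/6Nx and 0.884 in sham (4 of 8 rose), and to 834 in 1/3Nx and 1.77 in sham (7 of 8 rose), per the authors' deposited table of each surgery. Liver markers summed to 64.3 FPKM in 1/3Nx and 2.42 in sham (3 of 5 rose), and to 1.88 in 5/6Nx and 1.21 in sham (0 of 2 tested rose, and 3 of 5 listed were lower in 5/6Nx), per the authors' deposited table of each surgery. No listed marker of these lists stood at 0 in any group.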

How the data were processed

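For each surgery the authors deposited gene and isoform values: 1 FPKM per group, the log2 fold change over sham, and a p-value and q-value, per the file headers. The layout is that of Cuffdiff; its command was not given in these sources. Tools named in the submitters' processing notes are TopHat2 2.1.1 and Cufflinks 2.2.1, with cutadapt, FastQC and StringTie, and rn5 as the build. Sequence names of later assemblies also occur, so the build of gene coordinates is not settled. A deposited summary gives, per the file headers, each library's count of reads, percent of high-quality bases and percent of reads mapped. The labels name a stranded total RNA kit but speak of small RNA libraries, which was not settled. They describe separate animals.

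A test on single libraries was planned but needs values per rat, so the design's fallback, the authors' q under 0.05, was used. Rows with several gene names (628 in either gene table) were shifted over extra columns and left out, so no member value was read from them. Whether any of them names Ccnb2 is not shown here. The Benjamini-Hochberg method was checked on simulated data and used to recompute q-values from the deposited p-values. Promoter matches were counted on both strands. Python 3.11.15, pandas 2.3.3 and scipy 1.17.1 were used. Members and gene lists were chosen with earlier results of these data known. Full values are given for members past the threshold and for a set of central cycle genes, other members by range or fold change, and genes outside the list where past the threshold, with all CDK inhibitors.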

Additional observations from a re-analysis of the deposited data

Results flagged for a closer look

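The number of reads of 5/6Nx replicate 5, 103.557 M, lay far above the other libraries of its group, which held between 59.0 and 73.0 M. Its gap to the nearest library was 0.685 of the group's range. The group's 71.9 ± 16.4 M (SD, n = 6) includes replicate 5. By the construction of the critical value used, chance flags about 1 in 20 groups, and several measures and groups were screened. The same replicate mapped at 77.2%, and replicate 3 of the group at 62.6%. The expression tables hold 1 value per group, so its part in the 5/6Nx values of the cell cycle genes was not tested.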

How the results depend on the processing

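No paired analysis was possible because the expression tables hold 1 value per group, and leaving out replicates was not run for the same reason. The count of 8 members called after 5/6Nx became 2 with q recomputed over single-name features, 2 at q under 0.01, 0 over features of at least 1 FPKM in sham, 0 over features above 0 FPKM in sham and 0 in the isoform table. The count of 2 after 1/3Nx became 0 over features of at least 1 FPKM in sham, 0 at q under 0.01 and 1 in the isoform table. For q under 0.01 and for features filtered by their sham level, the share of all features called was not counted. A count of 0 by these rules is therefore not read as particular to the members. Features of at least 1 FPKM in sham leave out 6 of the 8 members called after 5/6Nx and both called after 1/3Nx by construction. At unadjusted p under 0.05, 10 members passed after 5/6Nx and 11 after 1/3Nx. The median log2 fold change of 1.40 after 5/6Nx became 1.11 with a pseudocount of 0.1, 0.49 with a pseudocount of 1 and 1.59 relative to features of at least 1 FPKM in sham, and the median of 0.54 after 1/3Nx became 0.25 with a pseudocount of 1. Many members stood under 1 FPKM in sham, so features of at least 1 FPKM are not matched to them in level. Of 56 values of single genes with a pseudocount of 0.1, 53 moved little, 3 became smaller (Ccne1 3.36, Cdc6 2.75 and Mki67 2.86, all after 5/6Nx) and none changed sign. The alternatives over features above 0 FPKM in sham and in the isoform table were chosen after seeing the data. No test was given for 4 members after 5/6Nx and 6 after 1/3Nx.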
